A study of Sus scrofa with 150 samples.

Results

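Immediate early genes are switched on within minutes of a signal, before any new protein has to be made, and their messages are short-lived. They include the FOS and JUN families, whose products pair to form the transcription factor AP-1, the zinc finger factor EGR1, the cAMP response family member ATF3, MYC, KLF10 and the small IER proteins. In liver the set is known for its response to injury, partial hepatectomy, growth factors and stress, so its level in tissue taken at slaughter can differ from animal to animal without any treatment.

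The 10 genes listed by symbol were FOS, JUN, JUNB, ATF3, EGR1, MYC, KLF10, IER2, IER3 and IER5, and the members are the probe sets of the Affymetrix Porcine Genome Array that carry one of these symbols. Of the 10 genes, 9 were represented, by 13 of the 23999 probe sets that are not array controls, and JUNB was not analysed here. EGR1 and IER5 had 3 probe sets each and the other 7 genes had 1 each. A gene with several probe sets is represented by the brightest. The members are found by symbol, and the list of symbols was drawn up with earlier results of these data known.

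The data are the livers of 150 pigs of the commercial cross Pix(DLxDE), collected at slaughter, with total RNA of each pig on 1 array. All 150 pigs form a single group with no treated and no control animals. The labels give for each pig the fat area over the long back muscle (mean 15.2 cm2, SD 3.25, range 8.1 to 26.7, median 14.65) and the drip loss of that muscle (mean 5.54%, SD 2.12, range 1.45 to 10.82, median 5.59). Sex, feeding before slaughter, hour of sampling and the time between death and sampling are not among the labels used here.

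All 10 hepatocyte markers were measured, with mean values from 12.09 (APOB) to 13.93 (ALB) on the log2 scale, so the tissue matched its label. Array medians ran from 5.80 to 6.10 (log2), the floor of the values was 4.09 and 13 arrays stood apart by their correlation with the others. In bulk liver, fewer cells of a type and less RNA per cell cannot be told apart. Livers are called by letters that are names only.

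The brightest probe sets of the immediate early genes varied more over the livers than most of the array, at percentiles of SD from 85.2 (IER5) to 99.5 (EGR1). The brightest EGR1 probe set had an SD of 0.875 on the log2 scale over the 150 livers, and the SDs were 0.769 for ATF3, 0.763 for FOS, 0.657 for MYC, 0.584 for JUN and 0.556 for KLF10. The SDs of IER3, IER2 and IER5 were 0.51, 0.471 and 0.423, against a median of 0.259 over all probe sets. The 2 dimmer IER5 probe sets had SDs of 0.242 and 0.387 (percentiles 42.4 and 80.7). Every value that follows in this description is a deposited log2 value.

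Among the AP-1 genes, FOS had a lowest value of 5.47, a median of 7.23 and a highest of 10.06, a 24.1-fold range. JUN, its usual partner, had 7.37, 8.57 and 11.25, with a second liver at 11.1. ATF3, a stress-induced factor that also pairs with JUN, had 5.33, 6.27 and 10.95, and this 49.2-fold range was the widest of the 9 genes. For ATF3 the second highest liver was at 9.54, so the upper end consisted of few animals, while FOS values thinned out more evenly. EGR1, which acts on promoters of growth and metabolic genes, had 5.93, 7.89 and 10.48 with livers spread along the whole range.

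MYC, the growth regulator, had a lowest value of 5.4, a median of 6.69 and a highest of 9.11. KLF10, a zinc finger repressor first described as a gene induced by transforming growth factor beta, had 7.2, 8.47 and 9.91. No single KLF10 value stood out at the top, where the second highest liver was also at 9.91, and the range was 6.54-fold. IER2, a nuclear protein of the early response, had 6.9, 7.63 and 9.65.

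IER3, which modulates cell survival, had a lowest value of 6.54, a median of 7.28 and a highest of 11.59. Its spread came from a pair of livers: the second highest was at 10.76 and the next at 8.32. IER5, whose product increases the activity of heat shock factor 1, had 6.75, 7.45 and 9.76, with the second highest liver at 8.75. The order of the genes by value is not a ranking of expression, because probe sets differ in their response to RNA.

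**Figure D1:**
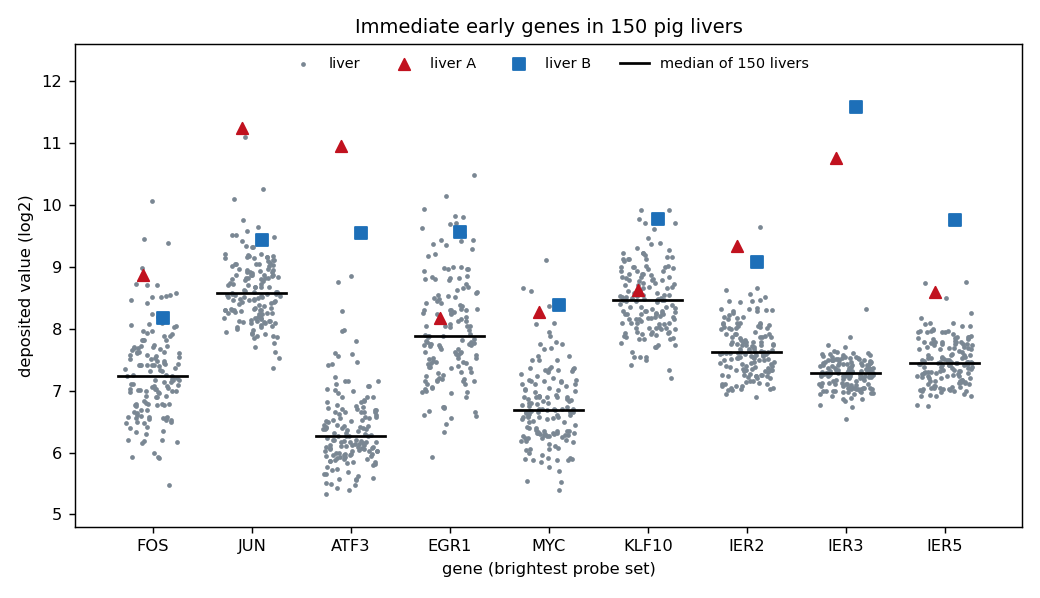
Deposited log2 values of the brightest probe set of each of the 9 immediate early genes (horizontal axis) in the 150 livers (grey points), with the median as a bar, liver A as a triangle and liver B as a square. The 2 marked livers are the highest in IER3 and ATF3, whereas liver A is close to the EGR1 and KLF10 medians.

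The probe sets of a gene did not always rise and fall together. For EGR1 the first and second probe sets by brightness correlated over the livers at r = 0.688 (rho 0.697), the second with the dimmest at r = 0.858 (rho 0.859) and the first with the dimmest at r = 0.496 (rho 0.526). For IER5 the brightest probe set correlated with the next brightest at r = 0.547 (rho 0.421) but with the dimmest at r = 0.193 (rho 0.176), and the 2 dimmer ones with each other at r = 0.13. Over 5022 pairs of probe sets that share a gene symbol, from 2261 genes, the median r was 0.217 and the quartiles were 0.0211 and 0.567. All 3 EGR1 pairs were thus above that median, and 2 of the 3 IER5 pairs were below it. The 2 dimmer IER5 probe sets had medians of 5.05 and 4.99, below the lowest array median (5.8), and 0 and 1 of their values were at the floor. Their means were at percentiles 26.4 and 23.9 of all probe sets. The floor is the lowest value in the data and not a limit of detection, and whether these probe sets were above background was not tested.

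The immediate early genes rose and fell together from liver to liver. All 36 pairs of the 9 genes correlated positively over the 150 livers, with a median r of 0.409, and 29 pairs (80.6%) were above 0.3 and 13 (36.1%) above 0.5. Over all pairs of the 6765 genes with a symbol, 50.9% of correlations were positive, 11.2% were above 0.3 and 3.15% above 0.5, with a median of 0.00442. The first principal component of the 9 genes held 50.5% of their variance and the second 13%.

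ATF3 was the gene most closely tied to the others, with a median r of 0.609 over its 8 partners, and IER3 the least, with 0.295. The closest pair was ATF3 and IER2, with r = 0.72 and rho = 0.725 (permutation p = 1e-05 for both, the smallest that 100000 permutations can give, n = 150). It was followed by ATF3 and JUN (r = 0.679, rho = 0.567), ATF3 and IER5 (r = 0.675, rho = 0.584), ATF3 and IER3 (r = 0.63, rho = 0.394) and FOS and EGR1 (r = 0.622, rho = 0.633), each with the same permutation p for r and rho. FOS and JUN correlated at r = 0.459 (rho 0.462), below the correlation of FOS with EGR1. JUN and KLF10 passed by neither measure (r = 0.141, permutation p = 0.0851, and rho = 0.11, permutation p = 0.18). IER3 did not pass by rho with JUN (0.0801, permutation p = 0.331), KLF10 (0.123, permutation p = 0.133) or MYC (0.126, permutation p = 0.126). All p values of pairs are unadjusted for the 36 pairs; adjustment over the whole array is given in the fits that follow.

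The sample titles carry a number per pig whose meaning is not given, and 10 blocks of 100 such numbers served as possible batches. With the block means removed, r was 0.716 for ATF3 and IER2, 0.69 for ATF3 and JUN, 0.608 for FOS and EGR1 and 0.491 for FOS and JUN. Of the 36 pairs, 13 were positive in all 10 blocks, and each pair was positive in at least 6. A block held 6 to 24 pigs.

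Most correlations of IER3 were lower without the 2 livers highest in it. Without livers A and B, ATF3 and IER3 correlated at r = 0.352 in place of 0.63, and IER3 with JUN at 0.0481 in place of 0.303 (rho over all 150 livers 0.0801, permutation p = 0.331). IER3 with IER5 was 0.263 without them, IER3 with IER2 0.197, IER3 with MYC 0.0938 and IER3 with KLF10 0.0775. With FOS it was 0.208 in place of 0.254 and with EGR1 0.192 in place of 0.197, so these moved less. The median over the 36 pairs was 0.352 without these livers and all 36 stayed positive, and ATF3 and IER2 still correlated at 0.667.

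**Figure D2:**
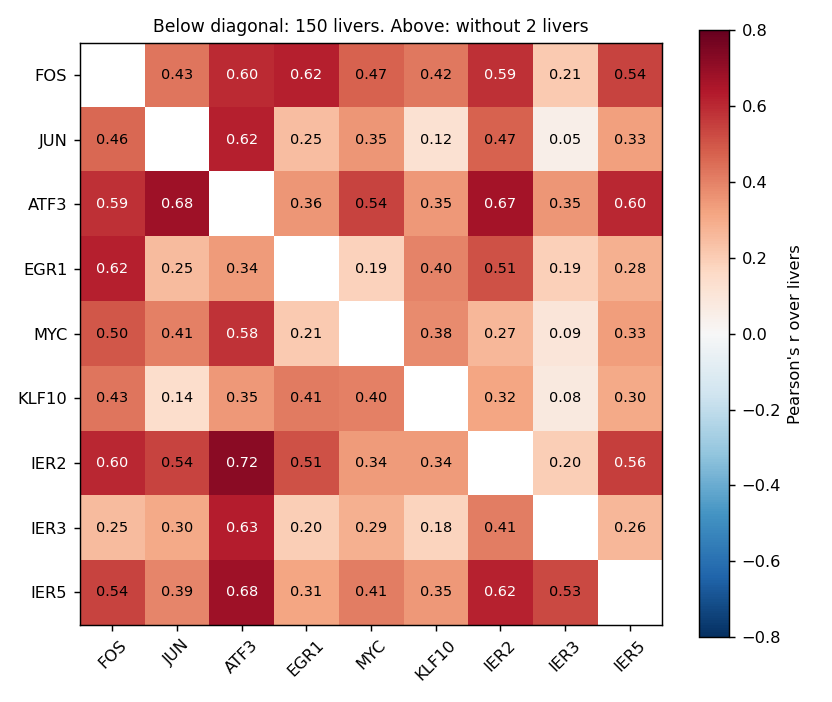
Pearson's r between the 9 immediate early genes, over 150 livers below the diagonal and without livers A and B above it, on a colour scale from -0.8 to 0.8. Every cell is positive, the ATF3 row is the darkest, and the IER3 column is paler above the diagonal than the IER3 row below it.

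To read this co-variation against the whole array, every probe set was fitted with limma on the level of each member in turn, with Benjamini-Hochberg adjustment over all probe sets and calls at an adjusted p under 0.05. With the level of ATF3, 8 of the 8 other members were called higher, where 2.85% of all probe sets were. The same held for FOS with 8 of 8 (2.13% of all probe sets) and for IER2 with 8 of 8 (7.58%). For IER5 it was 8 of 8, but 15.5% of all probe sets were called higher with IER5. With FOS the IER3 call (adjusted p = 0.0368) was lost in all 4 alternatives, namely blocks, array covariates, and leaving out the arrays that stand apart or livers A and B. With IER2 the IER3 call was lost without livers A and B, where 7 of 8 were called, and with ATF3 and IER5 it was 8 of 8 in each of the 4. The smallest adjusted p among members was 1.11e-21, for IER2 on ATF3 (slope 0.339 on the log2 scale per SD, SE 0.0268).

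With JUN 7 of 8 were called higher (12.6% of all probe sets), KLF10 being the exception (slope 0.0783, adjusted p = 0.203), and 6 of 8 without livers A and B. With MYC 7 of 8 were called (1.8%), EGR1 being the exception (slope 0.184, adjusted p = 0.17); it was 6 of 8 with blocks and 5 of 8 without livers A and B. With KLF10 6 of 8 were called (5.2%), without JUN and IER3. With EGR1 5 of 8 were called although only 0.2% of all probe sets were, and JUN, MYC and IER3 were not. With IER3 5 of 8 were called (1.49%), and 3 of 8 without the 2 livers, where 13% of all probe sets were called. No member was called lower with any other. EGR1 was called with JUN (adjusted p = 0.0121) but JUN was not called with EGR1 (adjusted p = 0.146), although their correlation is the same. The adjustment depends on how many probe sets follow the covariate, so these counts do not rank how closely the genes are tied.

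The 3 EGR1 probe sets gave the same calls on JUN and on MYC. On JUN the slopes of the 3 EGR1 probe sets by brightness were 0.218, 0.283 and 0.232 (adjusted p = 0.0121, 3.46e-05 and 1.5e-05), and on MYC they were 0.184, 0.14 and 0.124, with none called. The IER5 probe sets gave different calls. The second IER5 probe set by brightness was called higher with ATF3 (slope 0.117, adjusted p = 8.97e-08), IER3 (0.122, 4.3e-08), IER2 (0.101, 1.2e-05) and JUN (0.0722, 0.00229). The dimmest was called with none of the other 8 genes, its smallest adjusted p being 0.163.

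Several of the genes most like the members belong to a list of other early response genes. ZFP36, which destabilises AU-rich messages, was among the 3 genes of highest r for FOS (0.617), JUN (0.549), ATF3 (0.711) and IER5 (0.716). BTG2, an antiproliferative gene, was among the 3 for FOS (0.533), JUN (0.661), ATF3 (0.67) and IER2 (0.607). JUN was also near MCL1 (0.608), a survival protein of the BCL2 family, and MYC near the small GTPase RHOB (0.632), C17H8orf4 (0.625) and CYR61 (0.599), a matricellular protein that also followed FOS (0.571). RHOB completed the 3 of ATF3 (0.654).

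KLF10 and IER3 were near genes outside that list. KLF10 was nearest to HES1 (0.557), a repressor downstream of Notch, INSIG1 (0.543), a brake on sterol synthesis, and IVNS1ABP (0.539). EGR1 had no close partner, its highest being ID1 (0.444), an inhibitor of helix-loop-helix factors, SERTAD3 (0.371) and PHLDA2 (0.365). IER2 was near PHLDA2 (0.678) and ID1 (0.618), and IER5 near MESDC1 (0.758) and RASSF1 (0.719). IER3 was nearest to THBS1, the matrix protein thrombospondin 1 (r = 0.722, rho = 0.4), the inducible chaperone HSPA6 (r = 0.689, rho = 0.338) and tissue factor F3 (r = 0.628, rho = 0.247). The gap between r and rho was widest for IER3.

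With the mean of the 9 standardised genes, which ranks 6756 other genes, the highest r was again that of ZFP36 (0.737), followed by BTG2 (0.67), C17H8orf4 (0.658), RHOB (0.642), PHLDA2 (0.628) and PPP1R15A (0.626), a regulatory subunit that ends the translation block of stress. TGIF1 (0.623), TP53INP2 (0.606), MESDC1 (0.596) and NDEL1 (0.583) completed the top 10. The lowest were MEIS1 (-0.556), ATP23 (-0.538), METTL5 (-0.494), SYBU (-0.493) and CYP7A1 (-0.48), which starts the conversion of cholesterol to bile acids. Of all ranked genes 2.37% were above 0.3 and 1.23% below -0.3, with a median of -0.00438. These are descriptions over 150 livers, and all genes of a liver share 1 array and its processing.

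A list of other early response genes followed the members broadly. Of its 31 measured genes, 19 had an r above 0.3 with the mean of the members and 29 were positive, with a median of 0.333. FOSL2 (0.512), GADD45B (0.5) and the phosphatase DUSP1 (0.491) were among them, whereas FOSL1 (0.148), NR4A3 (0.0998), KLF9 (-0.00981) and ID2 (-0.0521) were not. Of 10 kinases and factors that act upstream on these promoters only CREM, itself an inducible cAMP-response gene, was above 0.3 (0.483). The kinases MAPK3 (0.115), MAPK8 (0.0629) and MAPK14 (-0.0785) were below 0.3, where the quartiles over all genes were -0.0932 and 0.0804.

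Smaller shares of the other stress lists than of the early response list were above 0.3, where 2.37% of all ranked genes were. In the list of endoplasmic reticulum and integrated stress genes 3 of 15 were above 0.3, namely DDIT3 (0.418), XBP1 (0.366) and ATF4 (0.342), with a list median of 0.06. In the heat shock list 2 of 11 were, the co-chaperones DNAJB1 (0.575) and BAG3 (0.497), with a median of 0.0802. Liver B was far above the median in both, with DNAJB1 at 12.97 (median 8.89) and BAG3 at 12.37 (median 9.5). Their r without this liver was not computed. In the list of glucocorticoid and fasting genes 3 of 13 were, with a median of 0.13, led by ANGPTL4 (0.356) and PCK1 (0.331). The remaining gene, SGK1, was just above 0.3 and is also counted in the list of other early response genes. In the acute phase list 0 of 17 were, and the median was 0.00961. The difference between these lists was not tested.

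Of the 10 marker lists, neutrophils had the highest correlation with the members. The summed level of 4 measured neutrophil markers correlated with the mean of the members at r = 0.359, with S100A8 at 0.34 and S100A9 at 0.333, and 2 of the 4 were above 0.3. Their mean values were 4.78 (ITGAM) to 5.88 (S100A9), at percentiles 19.2 to 48.4 of all probe sets. For stellate cells and fibroblasts the r of the sum was 0.253, with TAGLN at 0.34 (1 of 6 above 0.3), for macrophages 0.131 and for hepatocytes -0.106, and the other 6 cell types lay between -0.0775 and 0.0473. The part of these cells in the co-variation was not tested.

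Most members were lower where DBP was higher and higher where NFIL3 was higher. With the level of DBP, an output factor of the circadian clock, 6 of 9 members were called lower, where 11.9% of all probe sets were. These were JUN (slope -0.282 log2 per SD, SE 0.0415, adjusted p = 9.99e-08), ATF3 (-0.304, adjusted p = 2.6e-05), IER5 (-0.143, 0.000512), MYC (-0.191, 0.00344), FOS (-0.204, 0.00788) and IER2 (-0.109, 0.0256). With NFIL3, a repressor that opposes DBP on shared sites, 5 of 9 were called higher, where 4.77% of all probe sets were, led by MYC (0.319, adjusted p = 9.78e-08) and ATF3 (0.351, 7.95e-07). KLF10, IER3 and the brightest EGR1 probe set were called with neither, while the dimmest EGR1 probe set was called lower with DBP (-0.154, adjusted p = 0.00843). With ARNTL, a core clock activator, JUN alone was called higher (0.133, adjusted p = 0.049, 7.12% of all probe sets). Among the 7 measured clock genes, r with the mean of the members ran from -0.371 (DBP) to 0.406 (NFIL3). NFIL3 is counted both among these clock genes and in the list of other early response genes.

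Measures of array quality varied with large parts of the array. With the array median 0 of 9 members were called higher, where 36.7% of all probe sets were, and 2 of 9 were called lower, IER2 (-0.0965, adjusted p = 0.0199) and IER5 (-0.107, adjusted p = 0.00345), where 22.3% of all probe sets were, a share near that of the members. With the GAPDH difference between 3 prime and 5 prime probe sets, a sign of RNA integrity, JUN was called higher (0.202, adjusted p = 3.92e-05, 29.3% of all probe sets) and IER5 lower (-0.0828, adjusted p = 0.0302, 24.1%). With the same difference of actin (5.79% higher and 7.75% lower of all probe sets) and with the title number (7.17% and 13.4%), as with the averaged Y-linked probe sets (0.196% and 0.188%), limma called 0 of 9. Over the blocks of title numbers 1 of 9 differed by limma's F-test, where 14.9% of all probe sets did, namely the brightest EGR1 probe set with 15.4% of its variance (adjusted p = 0.0307). The other EGR1 probe sets had 4.62% and 5.17%.

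A few livers stood far above the rest and none far below. A value was called far when it lay over 3 scaled median absolute deviations (MAD) from the gene's median. Of the 1350 values of the 9 genes 25 (1.85%) were far above and 0 far below, against 0.712% and 0.539% of the values of all probe sets. They came from 15 livers, of which 5 had 2 or more such genes and 3 had 3 or more. In 3 of the 15 livers (D, K and O) the array stood apart from the others.

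Liver A, of a pig with a fat area of 12.1 cm2 and a drip loss of 7.89%, was the highest of all in JUN (11.25) and ATF3 (10.95, which is 9.15 MAD above the median). It was second in IER3 (10.76, 13.8 MAD) and IER2 (9.34, 3.91 MAD). Its EGR1 and KLF10 values of 8.17 and 8.63 were within 1 MAD of the medians, so these genes were not high in this liver. Liver B, of a pig with 13.1 cm2 and 2.63%, was the highest in IER3 (11.59, 17.1 MAD) and IER5 (9.76, 5.47 MAD). It was second in ATF3 (9.54, 6.39 MAD), with IER2 at 9.07 (3.29 MAD).

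The remaining livers were high in other members. Liver C (11.4 cm2, 5.66%) was the highest in FOS (10.06) and high in MYC (8.66) and ATF3 (7.98), with IER3 at 7.26, near its median. Liver D (11.5 cm2, 6.69%), whose array stood apart, had JUN at 11.1 and ATF3 at 8.85. Liver E (9.9 cm2, 5.22%) had ATF3 at 8.75 and IER5 at 8.74. Each of the other 10 livers had a single member far above, for example MYC at 9.11 in liver J and IER2 at 9.65 in liver M, the highest values of those genes. Over the 15 livers fat area ran from 9.4 to 14.5 cm2 and drip loss from 1.91 to 10.82%. These livers were picked by their values and are described one by one, with no comparison to the rest.

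**Figure D3:**
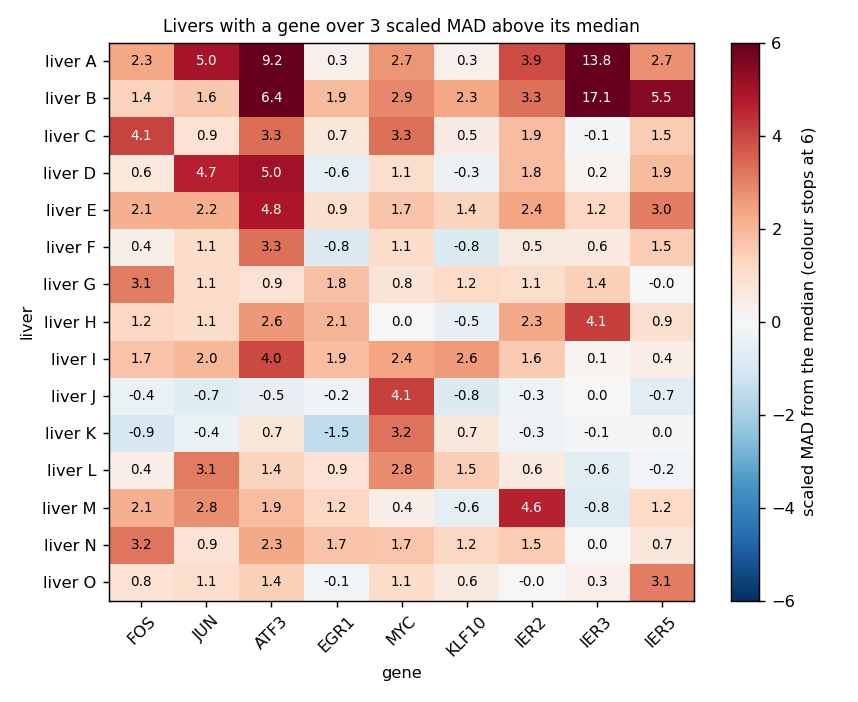
Distance of each immediate early gene (columns) from its median, in scaled MAD, in the 15 livers (rows) with at least 1 gene over 3; the colour stops at 6 and the numbers give the distance. Livers A and B share ATF3, IER2 and IER3, while most other livers have a single gene over 3.

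The pair of top livers differed outside the 9 genes. Over 8 MAD above the median in both were IER3 and 1 other gene, THBS1, with 9.83 in liver B and 9.09 in liver A against a median of 6.48. Of 31 other early response genes 9 were over 3 MAD in liver B and 8 in liver A. Both had ZFP36, GADD45B, PPP1R15A, MCL1 and RHOB among them, and CREM of the upstream list was over 3 MAD in both too. GADD45B, a gene of growth arrest, was at 12.46 in liver B and 9.27 in liver A (median 8.24), while PPP1R15A was at 6.7 and 8.41 (median 5.72) in the same order.

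Heat shock genes were high in liver B and not in liver A. In liver B, 7 of 11 were over 3 MAD, including HSPH1 at 11.7 (median 6.56), DNAJB1 at 12.97 (median 8.89) and BAG3 at 12.37 (median 9.5). In liver A it was 0 of 11. In liver B, 2.52% of all genes were over 3 MAD above their median, in liver A 0.681%, and in the median liver 0.2%. None of the markers of the 10 cell type lists was over 3 MAD in either liver. In liver A the T cell marker CD3D (-3.37 MAD), the endothelial CDH5 (-3.16) and the platelet gene GP9 (-3.14) were far below. Of all genes, 0.873% were far below in liver A. In liver B none of the markers was far below. CD3D was 1 of 5 measured T and NK cell markers, whose median in liver A was -0.45 MAD. The platelet list had a median of 0.205 MAD in liver B and -1.62 in liver A, and the endothelial list 0.248 and -1.08 in that order. The 4 neutrophil markers had a median of 1.91 MAD in liver B and -0.44 in liver A. The GAPDH 3 prime to 5 prime difference was 0.6 in liver B and 1.42 in liver A, with a mean of 0.921 over all livers. The part of RNA integrity was not tested.

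The comparison with fat area asked whether the immediate early genes were higher or lower in fatter pigs. All 9 slopes were negative, between -0.0727 (IER3) and -0.201 (ATF3) log2 per SD of fat area, with a median of -0.128, where 49.5% of all probe sets had a negative slope and the median over all was 0.000248. Of the 9 genes 7 had an unadjusted p under 0.05 on the lower side, where 3.65% of all probe sets did. After adjustment over the array 1 of 9 was called lower, IER5, where 0.0458% of all probe sets were (0.125% in either direction). Since the 9 genes vary together, their slopes are not independent of each other. The list was also drawn up with earlier results of these data known, so these counts are not independent evidence.

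IER5 had a mean of 7.33 (SD 0.292) in the 30 pigs with the largest fat area and 7.7 (SD 0.464) in the 30 with the smallest, a ratio of 0.77. The lowest, median and highest values were 6.92, 7.28 and 7.97 in the fattest pigs, and 6.75, 7.69 and 8.74 in the leanest. The groups overlapped, but 8 of the 30 fattest pigs and 21 of the 30 leanest were above the median of all pigs. Within the 10 blocks the correlation with fat area was negative in 9 (from -0.76 to 0.307) and -0.386 with block means removed. The slope was -0.141 (95% interval -0.205 to -0.0768, limma adjusted p = 0.0231), rank 26 of all probe sets. It was called in 12 of 16 alternatives, of which the alternative at an adjusted p under 0.1 repeats the main fit and could not lose the call. It was not called with the mean of the 3 IER5 probe sets (slope -0.0727, adjusted p = 0.133) or after quantile normalization (-0.137, 0.0554). Nor was it called with the Y-linked mean (-0.136, 0.214) or the clock genes DBP, ARNTL and NFIL3 (-0.0978, 0.573) as covariates. NFIL3 is also in the list of other early response genes, so this adjustment is not one for clock genes alone.

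**Figure D4:**
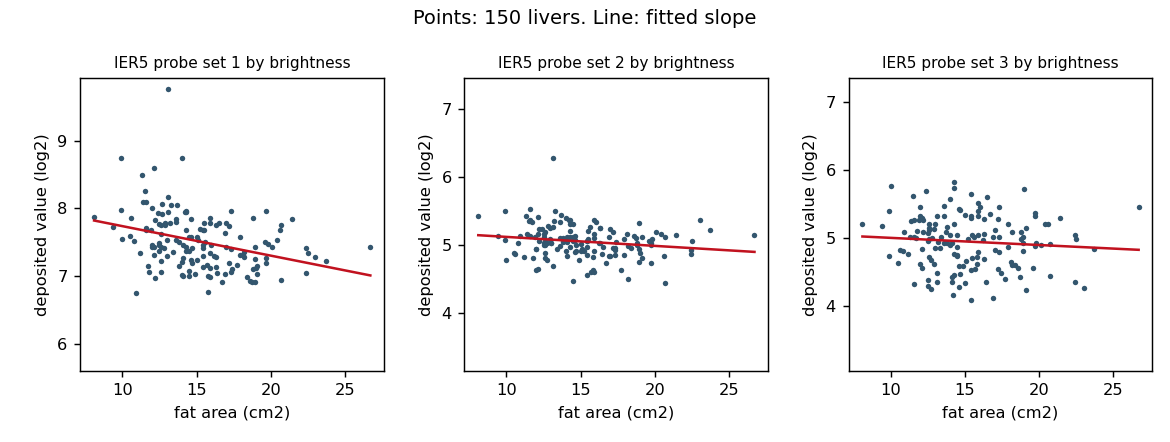
Deposited log2 values of the 3 IER5 probe sets against fat area in cm2, 1 point per liver, with the fitted line; the vertical axes span the same log2 range. The brightest probe set falls with fat area, with a slope of -0.141 per SD, and the dimmer ones have slopes of -0.0429 and -0.0342 and were not called.

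ATF3 averaged 6.24 (SD 0.528) in the 30 fattest pigs and 6.75 (SD 1.165) in the 30 leanest. The highest value was 7.59 in the fattest pigs and 10.95 in the leanest, with medians of 6.1 and 6.33 in that order. The slope of ATF3 did not pass (95% interval -0.32 to -0.0821, p = 0.00105, adjusted p = 0.196), and was -0.159 without livers A and B. FOS averaged 7.09 (SD 0.695) in the fattest and 7.53 (SD 0.986) in the leanest, a ratio of 0.736, with a slope of -0.136 (p = 0.0267, adjusted p = 0.609). JUN averaged 8.5 in the fattest and 8.78 in the leanest (slope -0.0958, adjusted p = 0.671).

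MYC averaged 6.65 in the fattest and 6.94 in the leanest pigs, with nearly the same number above the overall median, 15 and 17 of 30. KLF10 averaged 8.24 and 8.53 in that order, with 9 and 16 of 30 above the median. The correlation with fat area within the 10 blocks was negative in 5 for JUN, 6 for MYC and EGR1, 7 for ATF3 and IER2, 8 for FOS and 9 for KLF10, IER3 and IER5. Neither MYC nor KLF10 passed after adjustment (0.395 for MYC, 0.324 for KLF10). IER2 averaged 7.6 in the fattest and 7.84 in the leanest (slope -0.0872, adjusted p = 0.58), and IER3 7.24 and 7.44 (slope -0.0727, interval -0.154 to 0.00836). IER3 without the 2 livers highest in it had a slope of -0.0312. EGR1 had slopes of -0.0883, -0.0989 and -0.0863 for its 3 probe sets, with an interval of -0.227 to 0.0508 for the brightest.

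Most other early response genes had slopes of the same sign on fat area, but none was called. The lists, like the members, were chosen with earlier results of these data known. Over all probe sets 49.5% had a negative slope, and 3.65% had an unadjusted p under 0.05 on the lower side. Limma called 0.125% of all probe sets in either direction. Of 31 other early response genes 28 had a negative slope on fat area, 9 with an unadjusted p under 0.05, and limma called 0, with a median of -0.0466; NFIL3 (-0.138, adjusted p = 0.301) and MCL1 (-0.0929, adjusted p = 0.387) had the smallest p. Of 10 upstream kinases and factors 0 were called and 0 had an unadjusted p under 0.05. Of 11 heat shock genes 0 were called and 2 had an unadjusted p under 0.05 on the lower side, DNAJB1 (-0.117) and HSPA8 (-0.106). All 15 genes of endoplasmic reticulum and integrated stress had a negative slope, with a median of -0.0728. Limma called 1 of them lower, the asparagine synthetase gene ASNS (-0.172, adjusted p = 0.0228). An unadjusted p under 0.05 was found for 8 of the 15, all on the lower side. Of 7 clock genes 1 was called higher, DBP (0.216, adjusted p = 0.0231). Of 17 acute phase genes 0 were called, with an unadjusted p under 0.05 for 4 on the lower side and 1 on the higher. Of 13 glucocorticoid and fasting genes 0 were called, with such a p for 1 on each side. Among 10 marker lists of cell types limma called 0 genes, and CD14 and CD2 had an unadjusted p under 0.05, both with negative slopes. The summed neutrophil markers ran from 6.85 to 8.05 in the 30 fattest pigs and from 6.82 to 8.83 in the 30 leanest, with means of 7.33 and 7.42 in that order, and their part in the slopes was not tested.

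With drip loss the immediate early genes showed no slope that passed. Limma called 0 of 9, as it called 0% of all probe sets, and 0 of 9 had an unadjusted p under 0.05, where 11% of all probe sets did. Of the 9 slopes 6 were negative, where 43.5% of all probe sets had a negative slope, and 3 positive, with a median of -0.0103. KLF10 was the largest, at 0.0788 log2 per SD (95% interval -0.00939 to 0.167, p = 0.0795, adjusted p = 0.503), with means of 8.7 (SD 0.582) in the 30 pigs with the highest drip loss and 8.48 (SD 0.556) in the 30 with the lowest. EGR1 had -0.0542 in its brightest probe set but 0.0861 and 0.0538 in the others, so its direction was not settled. Of the 31 other early response genes 0 were called and 4 had an unadjusted p under 0.05, those of smallest p being ID3 (-0.0766) and KLF2 (-0.0518), and limma called 0 in every other list.

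The intervals on drip loss bound how large a slope could have gone unseen. The widest was that of the brightest EGR1 probe set, -0.194 to 0.0853. They were -0.134 to 0.11 for FOS, -0.105 to 0.0819 for JUN, -0.108 to 0.138 for ATF3 and -0.139 to 0.0717 for MYC. For IER2 the interval was -0.0745 to 0.0768, for IER3 -0.0891 to 0.0746 and for IER5 -0.0783 to 0.0578. The interval of IER5 on drip loss did not reach its slope on fat area. The difference itself, with both traits in a single model, was -0.121 for IER5 (SE 0.0443, p = 0.00701, adjusted p = 0.436) and -0.192 for KLF10 (SE 0.0595, p = 0.00153, adjusted p = 0.337). No member passed that test, where 0.00833% of all probe sets did.

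**Figure D5:**
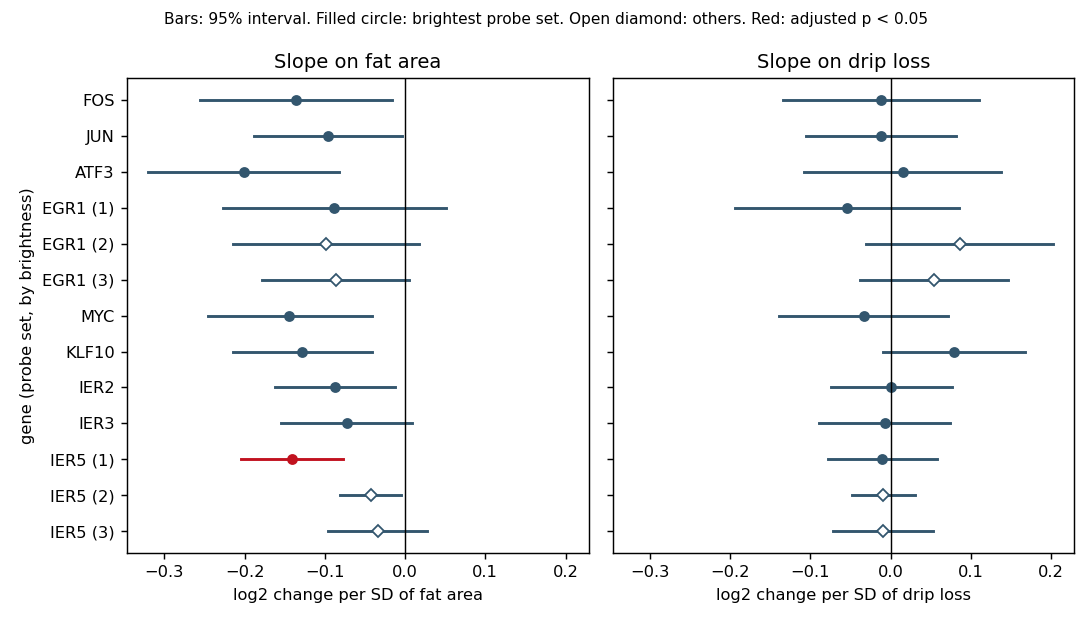
Slopes of the 13 probe sets on fat area (left) and drip loss (right), in log2 per SD of the trait, with 95% intervals; filled circles are the brightest probe set of a gene, open diamonds the others, and red marks an adjusted p under 0.05. All points on fat area lie below 0 and only IER5 is red, while on drip loss every interval contains 0.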

How the data were processed

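Liver RNA of 150 pigs was measured on 1 array each. The authors deposited log2 values, 1 per probe set and array; the scale was read from the values, and the authors used GCOS 1.1.1 per the submitters' processing notes. How probes were summarised and arrays normalized: not given in the sources used here. Of 24123 probe sets, 124 controls were left out; 10069 had 1 symbol in the array's annotation, 198 several and 13732 none.

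Slopes per SD of the trait, or of a gene's level, were fitted with limma 3.58.1 (lmFit, eBayes with trend) in R 4.3.3, two-sided, adjusted over all 23999 probe sets (own probe sets of the gene left out where it was the covariate). The pigs have no labelled replicate groups, and their number limits the precision. Correlations used Python 3.11.15 and scipy 1.17.1 with 100000 permutations. Alternatives were quantile normalization, array median centring, normal scores, no trend, floor filter, covariates (array median, 3 prime to 5 prime differences, title number, Y-linked mean, clock genes), other thresholds, the mean of a gene's probe sets and leaving out arrays or pigs. Leaving out the 2 livers highest in IER3 was chosen after seeing the data. Named were all members, the 3 genes most like each, the 10 highest and 5 lowest with their mean, and up to 4 called genes of a list or otherwise the 2 of smallest p. Other genes were named after their values were seen. Members and lists were chosen with earlier results of these data known.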

Additional observations from a re-analysis of the deposited data

How the results depend on the processing

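Over 16 alternatives the slopes of the 13 member probe sets on fat area were negative in 196 of 197 values. The no trend, floor filter and adjusted p under 0.1 alternatives leave every slope unchanged, so the sign of those values was fixed in advance. The exception was JUN with the clock genes as covariates (0.00468), where the median slope of the members was -0.0674. These covariates include NFIL3, which is also in the list of other early response genes. The number of members called on fat area was 0 with the clock genes, with the Y-linked mean and after quantile normalization; the cause was not tested. Over all probe sets, calls on fat area numbered 30, and 48 with the 3 prime to 5 prime differences, 59 with the array median, 46 without the arrays that stand apart, 66 at an adjusted p under 0.1, 5 with the clock genes and 1 with the Y-linked mean. Slopes on drip loss were near 0 and changed sign easily: ATF3 was -0.0185 with blocks, -0.00505 with normal scores and -0.000735 without 2 pigs; EGR1 was 0.0285 as the mean of its probe sets. FOS was 0.0029 with the 3 prime to 5 prime differences, 0.00311 with the array median, 0.0172 with blocks, 0.0236 with the spline of the title number and 0.000124 without the arrays that stand apart. IER2 was -0.0087 with the clock genes, -0.00774 after centring, -0.0201 with blocks, -0.00204 after quantile normalization and -0.0156 without 2 pigs. IER3 was 0.0177 with the 3 prime to 5 prime differences, 0.0238 with normal scores and 0.00665 without the 2 livers highest in it. IER5 was 0.00118, 0.00426 and 0.00677 with the 3 prime to 5 prime differences, the array median and blocks, and 0.0024 without those livers, and its second probe set by brightness was 0.00881 with the 3 prime to 5 prime differences. The median slope on drip loss was 0.0029 and 0.00311 with the 3 prime to 5 prime differences and the array median. With blocks, 3 members were called higher with EGR1, and without the 2 livers 3 were with IER3. The median correlation of the 36 pairs stayed between 0.352 and 0.437, and 8 livers had a member far above at 4 MAD. No paired analysis was possible because all pigs form a single group. Values near the floor of 4.09 may understate changes.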
